A study of Mus musculus with 26 samples.

Results

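The genes described here are 10 regulators of the G1 phase of the cell cycle, measured in pancreatic islets of adult and neonatal mice. They are the D cyclins Ccnd1, Ccnd2 and Ccnd3, the E cyclin Ccne1, the kinases Cdk4 and Cdk6, the inhibitors Cdkn1b, Cdkn2b and Cdkn2c, and the retinoblastoma gene Rb1. Each symbol matched exactly 1 of the 13641 gene names in the table of FPKM, which counts sequenced fragments relative to gene length and to the size of the library. The series' title concerns the response of α and β cells to DNA damage. All mice were C57BL/6J. Adult islets came from mice aged 2.5 months (6 libraries), and neonatal islets from mice at postnatal day 5, which had been separated into small (9 libraries) and large (11 libraries) islets. Adult libraries fell into batch 2 (4 libraries) and batch 3 (2 libraries), neonatal small ones into batch 1 (4), batch 2 (3) and batch 3 (2), and neonatal large ones into batch 1 (4), batch 2 (4) and batch 3 (3). RNA came from hand-picked islets and was depleted of ribosomal RNA. The number of animals behind a library is not stated, so each p-value measures the spread between libraries, which may be technical.

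In the classical scheme, D cyclins bind CDK4 or CDK6, the complexes phosphorylate the retinoblastoma protein, and E2F transcription factors are then freed to switch on genes for DNA synthesis, with cyclin E and CDK2 adding to the phosphorylation. Proteins of the INK4 family, among them those of Cdkn2b and Cdkn2c, bind CDK4 and CDK6 and keep them from D cyclins. The CIP/KIP protein encoded by Cdkn1b acts mainly on cyclin E and CDK2 complexes. In mice, loss of Cdk4 or of Ccnd2 reduces the growth of the β cell mass after birth, and β cells divide often in neonates and rarely in adults.

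Depth ran from 15.5 M to 32.0 M fragments (M, mega), as recovered from the FPKM of the table's genes. Beta cell transcripts dominated every library, with Ins2 at a median of 97593 FPKM in adult, 57386 FPKM in neonatal small and 57055 FPKM in neonatal large libraries. Ins1 differed less, with medians of 49228, 46379 and 46933 FPKM. Of 6 beta cell markers 4 were higher in adult islets and 0 lower. Of 4 alpha cell markers 1 was higher and 3 were lower. Neonatal large replicate 14, of batch 3, stood apart from the rest: ribosomal protein genes took 8.68% of its summed FPKM, against 2.88% to 4.99% in the other 25 libraries. Leaving it out did not change how many of the 10 genes were called in any comparison. Markers of some other cell types differed with age. The summed FPKM of the 5 endothelial markers lay between 109 and 134 in adult libraries, 302 and 470 in neonatal small and 313 and 489 in neonatal large libraries, and all 5 were lower in adult islets. Of the 6 mesenchymal markers 5 were lower in adult islets (sums of 27.6 to 72.6 FPKM in adult, 100.1 to 450.2 in neonatal small and 165 to 838 in neonatal large libraries), and so were 4 of 4 duct and both measured erythroid markers. Of the acinar and lymphocyte markers, 0 of 3 and 0 of 2 tested were called, while 1 of 4 macrophage and 1 of 3 Schwann markers was lower. Acinar sums ran from 2.92 to 1823 FPKM in adult, 2.17 to 102 in neonatal small and 3.70 to 630 in neonatal large libraries. The part of any of these cell types in the results below was not tested. In bulk islets, fewer cells of a type and less RNA per cell cannot be told apart.

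Adult islets had lower FPKM than neonatal islets for 6 of the 10 genes (Ccnd3, Ccne1, Cdk4, Cdk6, Cdkn1b and Cdkn2c) and higher FPKM for 2 (Ccnd2 and Cdkn2b), while Ccnd1 and Rb1 did not pass the test. A gene was called when its adjusted p from limma on log2(FPKM + 1), with terms for group and batch, was under 0.05. Of the 13402 genes tested, 46.8% were called lower and 21.1% higher in adult islets, so a lower call was common in this comparison. The median log2 difference, adult minus neonatal, was -0.41 over the 10 genes and -0.16 over all genes tested. That median depended on the scaling: it was 0.02 with values rescaled by median of ratios and 0.06 with quantile-normalized values. The genes called were 2824 higher and 6272 lower as deposited. Rescaled by median of ratios, 4676 were higher and 4452 lower, and quantile-normalized values gave 5021 higher and 4026 lower. The adult libraries were also set against each neonatal size, with the adult libraries shared by both comparisons, and the same counts were obtained: 2 of the 10 genes higher and 6 lower against neonatal small islets (19.9% and 43.1% of all genes) and against neonatal large islets (20.2% and 46.9% of all genes).

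**Figure D1:**
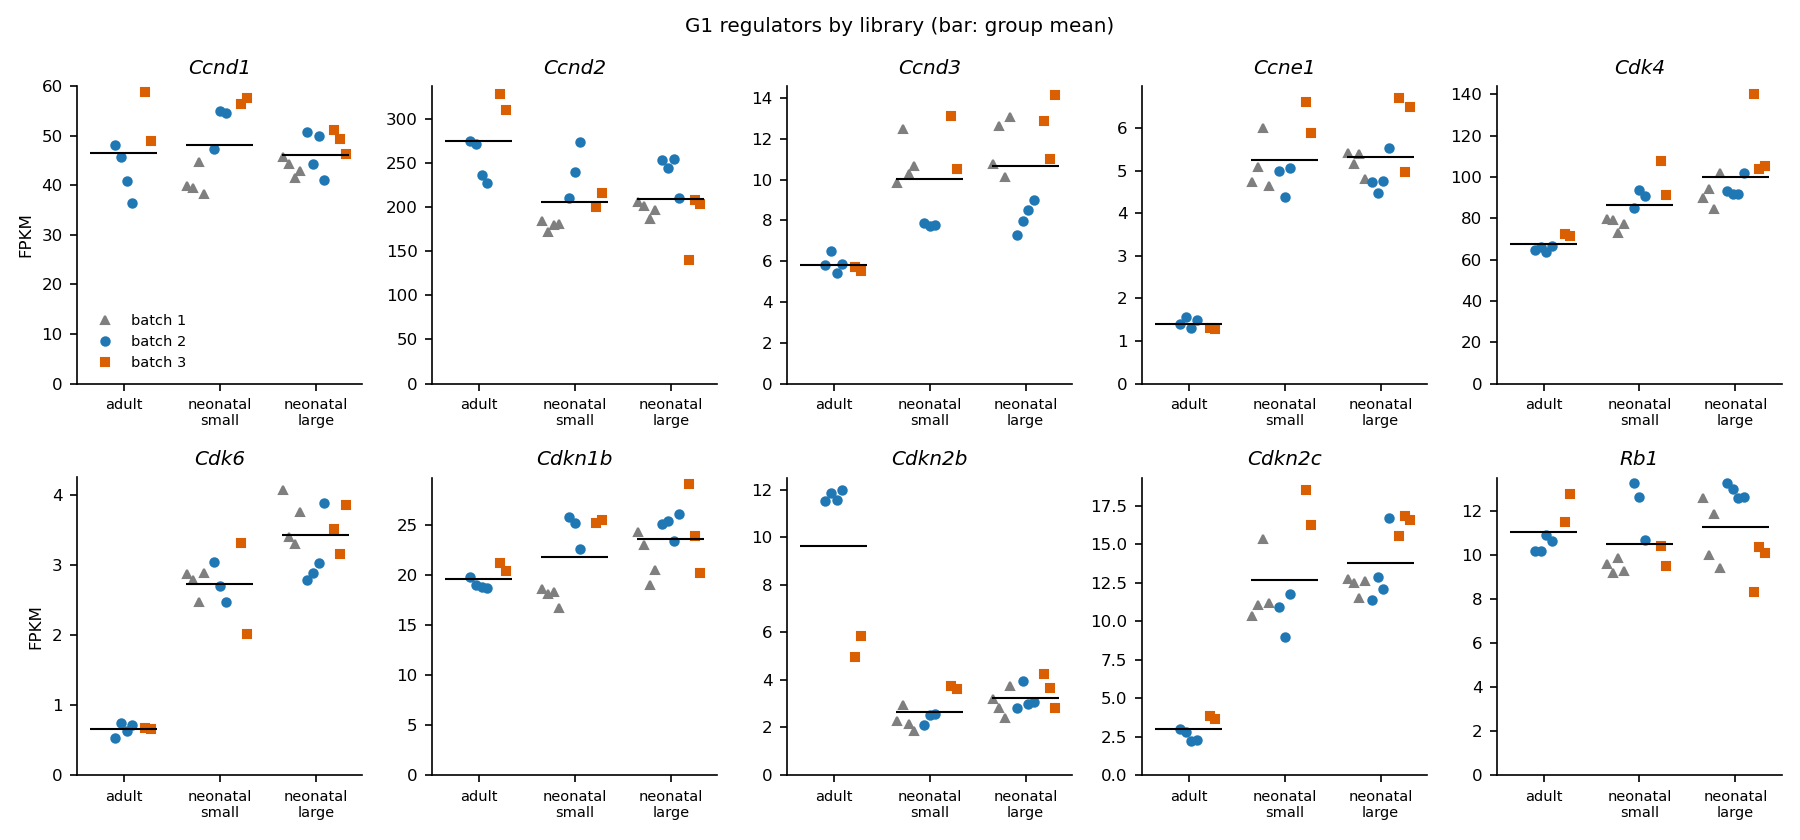
FPKM (vertical axis, from 0) of each of the 10 genes in every library of adult, neonatal small and neonatal large islets, with batch 1 as triangles, batch 2 as circles and batch 3 as squares, and the group mean as a bar. Adult libraries lie wholly below all neonatal libraries for Ccnd3, Ccne1, Cdk4, Cdk6 and Cdkn2c, and wholly above them for Cdkn2b, while Ccnd1, Ccnd2, Cdkn1b and Rb1 overlap.

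The plot of FPKM by library shows 6 genes whose adult and neonatal values did not overlap at all over the 26 libraries. Adult values lay below all neonatal ones for 5 of the 10 genes, against 20.2% of all genes tested, and above them for Cdkn2b alone among the 10, against 5.21% of all genes.

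Among the D cyclins, Ccnd2 (chromosome 6, 127125162 to 127152193, minus strand) was by far the most abundant in every library and was higher in adult islets. In adult islets its FPKM was 227 to 275 in the 4 libraries of batch 2 and 310 and 328 in those of batch 3. Neonatal small islets had 171 to 273 FPKM with a median of 199.9, and neonatal large islets 139 to 254 with a median of 205. The highest adult values were the pair from batch 3, and the adult range overlapped that of both neonatal sizes. Within batch 3 it did not, since neonatal libraries there had 139 to 216 FPKM. The log2 difference, adult minus neonatal, was 0.31 (SE 0.10, adjusted p 0.00990), but it was 0.07 in batch 2 (SE 0.08, adjusted p 0.463) and 0.72 in batch 3 (SE 0.20, adjusted p 0.0194). Without adult replicate 5 the log2 difference was 0.22 and was no longer called (adjusted p 0.0610).

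Ccnd3 (chromosome 17, 47505051 to 47599691, plus strand), the least abundant D cyclin here, was lower in adult islets. Adult libraries had 5.45 to 6.50 FPKM with a median of 5.77. Neonatal small libraries had 7.72 to 13.1 with a median of 10.3, and neonatal large libraries 7.27 to 14.2 with a median of 10.8. Every adult library lay below every neonatal one, and among neonatal libraries those of batch 2 (7.27 to 9.01 FPKM) were the lowest. The log2 difference was -0.60 (SE 0.09, adjusted p 1.05e-06), at -0.38 within batch 2 and -1.0 within batch 3.

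Ccnd1 (chromosome 7, 144929931 to 144939925, minus strand) was nearly level between the ages. Adult libraries had 36.5 to 59.0 FPKM with a median of 47.0, neonatal small libraries 38.2 to 57.7 with a median of 47.4, and neonatal large libraries 41.1 to 51.1 with a median of 45.8. The ranges of the 3 groups overlapped almost wholly. This was a log2 difference of -0.11 (SE 0.07, adjusted p 0.166), or 0.04 once the median of all genes was subtracted, and it was 0.09 after median-of-ratios rescaling. Without adult replicate 5 it was -0.17 and passed the test (adjusted p 0.0410), and it was called lower in batch 2 alone at -0.21 (adjusted p 0.0369). The exons of LTO1, on the opposite strand, overlap 23.4% of the exon length of Ccnd1, and whether the counting used strand is not given in the sources used here.

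Within a library, the share of each D cyclin in their summed FPKM does not depend on how libraries were scaled. Ccnd2 made up 84.0% ± 0.58 of the sum in adult (SD, n = 6), 77.9% ± 2.16 in neonatal small (n = 9) and 78.3% ± 3.72 in neonatal large libraries (n = 11). The lowest adult share was 83.5% and the highest neonatal share 82.3%, so the ranges did not touch. The share of Ccnd3 was 1.81% ± 0.29 in adult, 3.92% ± 1.12 in neonatal small and 4.13% ± 1.26 in neonatal large libraries, while the summed FPKM of the 3 genes overlapped between the ages (269 to 392 in adult, 223 to 336 in neonatal small and 203 to 313 in neonatal large libraries).

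Ccne1 (chromosome 7, 38097984 to 38107534, minus strand), whose protein activates CDK2 at the entry into S phase, was about 3.80 times as abundant in neonatal islets by the ratio of mean FPKM. Adult libraries had 1.28 to 1.56 FPKM with a median of 1.36, from 43 to 82 fragments. The neonatal small libraries ranged over 4.38 to 6.61 FPKM with a median of 5.06, and neonatal large libraries 4.48 to 6.72 with a median of 5.16. The lowest neonatal library held well over the highest adult value, and the sizes could hardly be told apart by eye. On log2 of FPKM + 1 the difference was -1.39 (SE 0.07, adjusted p 1.71e-15), and it was -1.26 in batch 2 and -1.64 in batch 3.

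The kinase genes Cdk4 (chromosome 10, 127063534 to 127067920, plus strand) and Cdk6 (chromosome 5, 3341485 to 3531008, plus strand) were both lower in adult islets. Cdk4 had 63.6 to 66.6 FPKM in the adult libraries of batch 2 and 71.2 and 72.3 in those of batch 3. Neonatal small libraries had 72.8 to 107.7 FPKM with a median of 85.1, and neonatal large libraries 84.5 to 140.2 with a median of 94.2. No adult library reached the neonatal range, although the highest adult value was within 1 FPKM of the lowest neonatal one. The highest neonatal value was that of neonatal large replicate 14, which also had the highest ribosomal protein share. On the log2 scale Cdk4 differed by -0.52 (SE 0.06, adjusted p 3.90e-08), at -0.49 within batch 2 and -0.57 within batch 3. Exons of Tspan31, on the opposite strand, overlap 19.7% of the annotated exon length of Cdk4, and Tspan31 itself was slightly higher in adult islets (log2 difference 0.14, SE 0.06, adjusted p 0.0432).

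Cdk6 had 0.536 to 0.750 FPKM in the 6 adult libraries with a median of 0.667. The neonatal small libraries ranged over 2.02 to 3.33 FPKM with a median of 2.79, and neonatal large libraries 2.79 to 4.08 with a median of 3.41. The gene passed the filter on low values through the neonatal libraries alone, since 0 of 6 adult libraries reached 1 FPKM. The adult values rested on 131 to 233 fragments per library. Mean FPKM was 4.70 times as high in neonatal islets. The log2 difference of FPKM + 1 was -1.25 (SE 0.07, adjusted p 2.58e-14), which understates the change of a gene this low: voom on the recovered fragments gave -2.16. Of the summed FPKM of both kinases, Cdk6 made up 0.973% ± 0.11 in adult (SD, n = 6), 3.09% ± 0.48 in neonatal small (n = 9) and 3.36% ± 0.52 in neonatal large libraries (n = 11).

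Among the 10 genes, the INK4 genes Cdkn2b and Cdkn2c went in opposite directions. A further INK4 gene, Cdkn2d, is not among the 10 and is named here after its values were seen. It was lower in adult islets, at 7.19 ± 0.78 FPKM in adult and 16.2 ± 2.76 FPKM in neonatal libraries (-1.09, adjusted p 8.10e-12). Cdkn2c (chromosome 4, 109660876 to 109667189, minus strand) had 2.24 to 3.00 FPKM in the adult libraries of batch 2 and 3.61 and 3.85 in those of batch 3. Neonatal small libraries had 8.94 to 18.5 FPKM with a median of 11.2, and neonatal large libraries 11.4 to 16.8 with a median of 12.8. The adult range ended far below the lowest neonatal library, and mean FPKM was 4.48 times as high in neonatal islets. The log2 difference was -1.87 (SE 0.08, adjusted p 1.91e-16), at -1.84 in batch 2 and -1.91 in batch 3. On log2(FPKM + 1) this was the largest in size among the 10 genes, while by the ratio of mean FPKM Cdk6 differed more (4.70, against 4.48 for Cdkn2c).

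Cdkn2b (chromosome 4, 89306299 to 89311039, minus strand) had 11.5, 11.9, 11.6 and 12.0 FPKM in the adult libraries of batch 2 and 4.99 and 5.85 in those of batch 3. The neonatal small libraries ranged over 1.85 to 3.73 FPKM with a median of 2.54, and neonatal large libraries 2.39 to 4.24 with a median of 3.08. All adult libraries lay above all neonatal ones, but those of batch 3 lay much nearer to them. This was a log2 difference of 1.30 (SE 0.15, adjusted p 1.46e-08). It was 1.76 in batch 2 (SE 0.07, adjusted p 5.68e-10) and 0.47 in batch 3 (SE 0.14, adjusted p 0.0287), and in batch 3 against neonatal small islets alone it did not pass the test (0.46, adjusted p 0.0700). The ratio of adult to neonatal mean FPKM was 4.10 in batch 2 and 1.5 in batch 3.

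**Figure D2:**
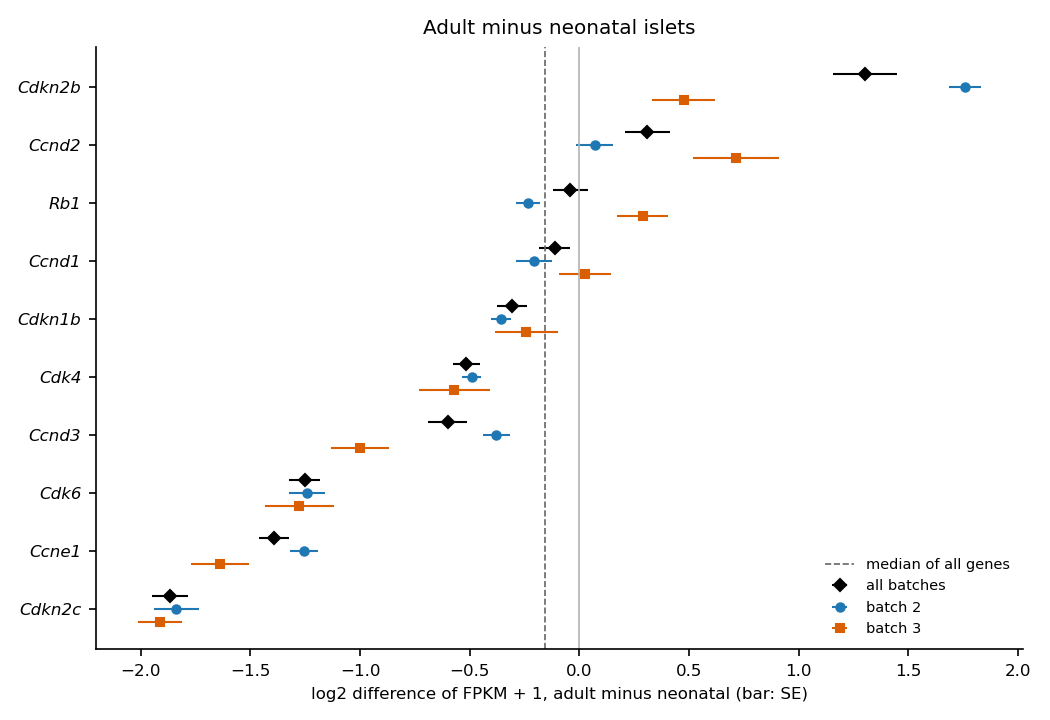
Log2 difference of FPKM + 1, adult minus neonatal (horizontal axis), with its SE for each gene over all batches (diamonds), in batch 2 (circles) and in batch 3 (squares), and the median of all genes as a dashed line. Cdkn2b lies at 1.76 in batch 2 and 0.47 in batch 3, while Cdkn2c lies at -1.84 and -1.91.

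The plot of log2 differences orders the genes from Cdkn2b at the top to Cdkn2c at the bottom and shows where the batches part. Shares were taken of the summed FPKM of Cdkn2b and Cdkn2c, without Cdkn2d. Of that sum, Cdkn2b made up 82.1% ± 2.26 in the adult libraries of batch 2 (SD, n = 4). In those of batch 3 it made up 56.4% and 61.8%. In neonatal small libraries the share was 17.4% ± 3.06 (n = 9), and in neonatal large libraries 19.2% ± 2.83 (n = 11). The lowest adult share thus stood far above the highest neonatal share of 23.6%. By FPKM, Cdkn2b was the more abundant of the pair in all 6 adult libraries and Cdkn2c in all 20 neonatal libraries. This order rests on the gene lengths used, which are not given. Before division by length, adult libraries of batch 3 held 128 and 141 fragments of Cdkn2b and 141 and 160 of Cdkn2c. The summed level of both overlapped between the ages, with 8.84 to 14.7 FPKM in adult, 11.5 to 22.2 in neonatal small and 13.9 to 20.5 in neonatal large libraries. Per unit of summed Cdk4 and Cdk6, that sum was 0.187 ± 0.047 in adult, 0.172 ± 0.036 in neonatal small and 0.165 ± 0.017 in neonatal large libraries. The adult values of this ratio split by batch (0.212 to 0.223 in batch 2, 0.121 and 0.132 in batch 3). The shares, the sum and the ratio all leave out Cdkn2d, which averaged 7.19 FPKM in adult and 16.2 FPKM in neonatal libraries. They therefore do not give the level of the INK4 genes as a whole, and sums with Cdkn2d were not taken.

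**Figure D3:**
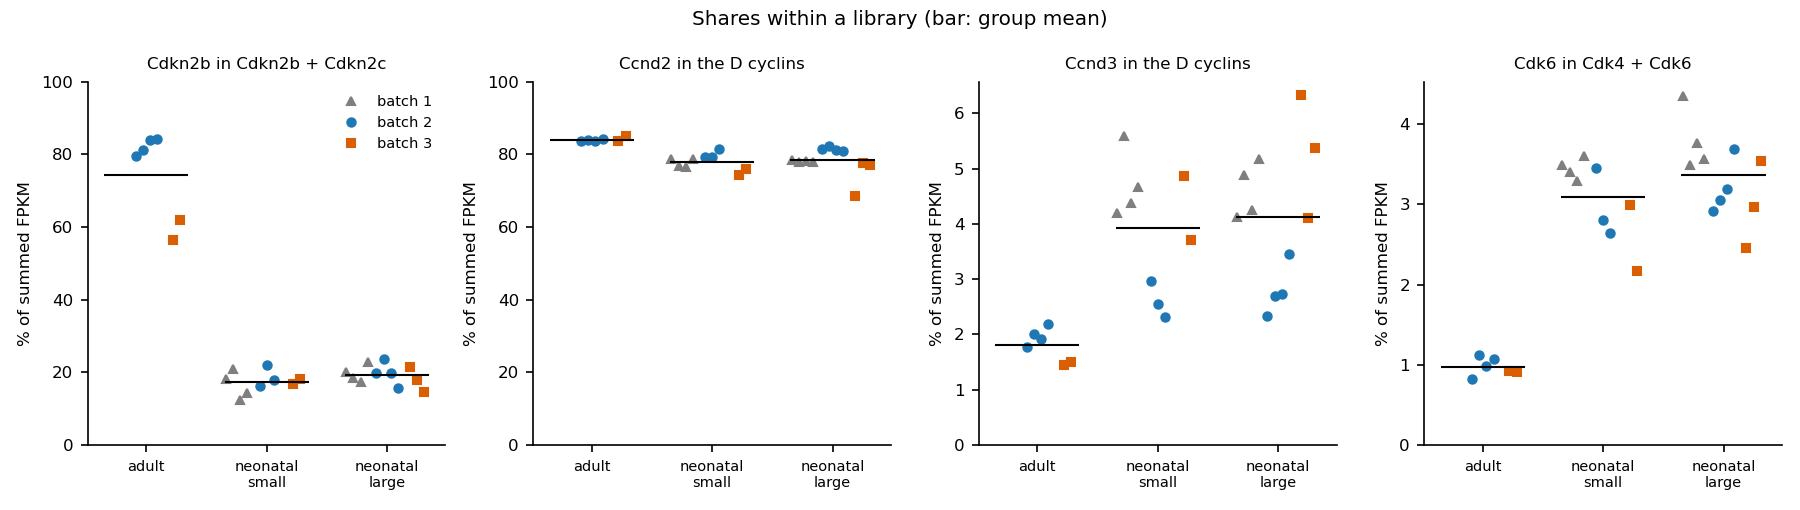
Share of summed FPKM (vertical axis, percent) of Cdkn2b in Cdkn2b plus Cdkn2c, of Ccnd2 and of Ccnd3 in the D cyclins, and of Cdk6 in Cdk4 plus Cdk6. Every library of adult, neonatal small and neonatal large islets is shown, with batches by symbol and the group mean as a bar. The adult share of Cdkn2b is 56.4% or more and the neonatal share 23.6% or less, and adult libraries of batch 3 lie below those of batch 2.

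Sequence upstream of the start sites was read for Cdkn2c, Ccne1 and Cdk6, each over 3 times as high in neonatal islets by mean FPKM, and for Cdkn2b, which moved the other way. The windows run from 250 bases before to 50 after a RefSeq start site in GRCm38.p6 and are written in the direction of transcription. Capitals mark the GC box GGGCGG or its complement CCGCCC, a word bound by SP family factors. For Cdkn2c the window of the more upstream of its 2 start sites is shown (chr4:109666707-109667006, minus strand). The others are Cdkn2b (chr4:89310983-89311282, minus strand), Ccne1 (chr7:38107441-38107740, minus strand) and Cdk6 (chr5:3343643-3343942, plus strand).
Cdkn2c: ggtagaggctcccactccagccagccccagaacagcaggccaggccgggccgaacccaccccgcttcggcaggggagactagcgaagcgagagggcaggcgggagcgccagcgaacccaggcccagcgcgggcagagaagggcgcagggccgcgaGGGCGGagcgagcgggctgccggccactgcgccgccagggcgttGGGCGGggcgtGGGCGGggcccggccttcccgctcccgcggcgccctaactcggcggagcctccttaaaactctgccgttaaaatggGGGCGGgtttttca
Cdkn2b: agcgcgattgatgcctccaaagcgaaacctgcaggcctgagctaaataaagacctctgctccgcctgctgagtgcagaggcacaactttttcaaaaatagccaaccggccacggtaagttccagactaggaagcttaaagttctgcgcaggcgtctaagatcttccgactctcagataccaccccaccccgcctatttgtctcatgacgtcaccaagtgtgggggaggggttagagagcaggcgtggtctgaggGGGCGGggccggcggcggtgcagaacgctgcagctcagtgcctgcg
Ccne1: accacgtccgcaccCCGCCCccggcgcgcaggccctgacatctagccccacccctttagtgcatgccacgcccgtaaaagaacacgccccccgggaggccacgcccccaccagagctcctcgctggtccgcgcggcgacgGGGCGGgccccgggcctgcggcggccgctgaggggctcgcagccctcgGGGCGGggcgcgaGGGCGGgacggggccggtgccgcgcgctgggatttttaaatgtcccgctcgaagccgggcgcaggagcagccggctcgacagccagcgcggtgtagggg
Cdk6: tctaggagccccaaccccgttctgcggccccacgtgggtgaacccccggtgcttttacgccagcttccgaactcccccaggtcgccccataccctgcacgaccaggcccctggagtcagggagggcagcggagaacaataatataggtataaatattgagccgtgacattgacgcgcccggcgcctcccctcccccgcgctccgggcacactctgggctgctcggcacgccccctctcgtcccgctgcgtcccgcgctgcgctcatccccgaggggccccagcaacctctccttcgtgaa
The window shown for Cdkn2c and that of Ccne1 each held 4 GC boxes, that of Cdkn2b held 1 and that of Cdk6 held 0. Among windows not shown, that of Cdk4 held 3, both of Ccnd3 held 2 and that of Cdkn1b held 1. The window of the other Cdkn2c start site, not shown, held 0 GC boxes. Its bases were 44.0% G or C, against 73.3% in the window shown. Over all 32851 promoter windows of the same length, 35.7% held at least 1 GC box and 5.49% held 4 or more. An E2F word (TTTCCCGC, TTTGGCGC, TTTCGCGC or TTTGCCGC, on either strand) was found in 0 of the 9 windows of 7 of the 10 genes, against 2.26% of all windows. The word TTTGAA, a core of the cell cycle homology region, was found in the Cdkn2b window only, against 17.9% of all windows. CCAAT was found 3 times in the window of Cdkn1b and once each in a window of Ccnd3 and of Cdkn2c, against 37.4% of all windows with at least 1.

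Cdkn1b (chromosome 6, 134920401 to 134925513, plus strand) was the most abundant of the 3 inhibitors in every library and slightly lower in adult islets. Adult libraries had 18.7 to 21.2 FPKM with a median of 19.4. Neonatal small libraries had 16.6 to 25.7 FPKM with a median of 22.6, and neonatal large libraries 19.0 to 29.1 with a median of 23.8. The adult values lay inside the neonatal range, whose low end was formed by neonatal small libraries of batch 1. The log2 difference was -0.31 (SE 0.07, adjusted p 0.000244), or -0.15 once the median of all genes was subtracted. It was called in batch 2 alone (-0.36, adjusted p 1.30e-05), not in batch 3 alone (-0.24, adjusted p 0.190), and not after median-of-ratios rescaling (-0.11, adjusted p 0.117) or without the batch term (-0.19, adjusted p 0.0655).

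Rb1 (chromosome 14, 73183673 to 73325822, minus strand), the target of the kinases, did not differ detectably between the ages over all batches. Adult libraries had 10.2 to 10.9 FPKM in batch 2 and 11.5 and 12.8 in batch 3. Neonatal small libraries had 9.18 to 13.3 FPKM with a median of 9.87, and neonatal large libraries 8.34 to 13.3 with a median of 11.9. The ranges overlapped. The log2 difference was -0.04 (SE 0.08, adjusted p 0.661), but it was -0.23 in batch 2 (SE 0.06, adjusted p 0.00185) and 0.29 in batch 3 (SE 0.12, adjusted p 0.0756). It was 0.15 after median-of-ratios rescaling. Exons of Rcbtb2 and Lpar6 on the opposite strand overlap 8.11% and 6.78% of the exon length of Rb1, and both neighbours were lower in adult islets (log2 difference -0.46 for Rcbtb2 and -0.64 for Lpar6).

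Whether the age difference was the same in both batches that held adult libraries was tested by an interaction term over their 18 libraries. It was called for 5 of the 10 genes, against 44.9% of all genes tested. The adult minus neonatal difference was larger in batch 2 than in batch 3 for Cdkn2b (difference of log2 differences 1.25, SE 0.16, adjusted p 9.90e-06). It lay nearer to 0 in batch 2 for Ccnd3 (0.62, SE 0.12, adjusted p 0.000505) and Ccne1 (0.38, SE 0.12, adjusted p 0.0200). For Ccnd2 (-0.66, SE 0.18, adjusted p 0.00746) and Rb1 (-0.53, SE 0.11, adjusted p 0.000871) batch 2 lay below batch 3. The call for Ccne1 was lost without adult replicate 5 (adjusted p 0.0605), without adult replicate 6 (adjusted p 0.0786) and in voom on recovered fragments (adjusted p 0.121). Cdk4, Cdk6, Cdkn1b, Cdkn2c and Ccnd1 did not pass the test, with differences between -0.24 and 0.09, although Ccnd1 (-0.24) was called with quantile-normalized values (-0.41, adjusted p 0.0169). Adult libraries of batch 2 were also the deeper ones (25.2 M to 27.4 M fragments, against 17.3 M and 18.5 M for those of batch 3), and the part of depth was not tested.

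Between the sizes of neonatal islet, the kinases were both lower in small islets, by less than their differences with age. Of the 10 genes 2 were called lower in small islets and 0 higher, against 12.7% and 4.96% of all genes tested. Counted over all genes, the split was 665 higher and 1698 lower as deposited, 1082 and 1096 when rescaled by median of ratios, and 1475 and 1189 when quantile-normalized. In batch 1, Cdk6 had 2.88, 2.79, 2.48 and 2.89 FPKM in small and 4.08, 3.41, 3.31 and 3.76 FPKM in large islets, with no overlap. In batches 2 and 3 the sizes overlapped, at 2.02 to 3.33 FPKM in small and 2.79 to 3.89 FPKM in large islets. The log2 difference, small minus large, was -0.25 (SE 0.06, adjusted p 0.0107), and it was -0.30 in batch 1, -0.15 in batch 2 and -0.32 in batch 3.

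Cdk4 had 79.7, 79.4, 72.8 and 77.2 FPKM in small and 89.6, 94.2, 84.5 and 101.7 FPKM in large islets of batch 1, again with no overlap there. The log2 difference over all batches was -0.18 (SE 0.05, adjusted p 0.0262), at -0.25 in batch 1, -0.07 in batch 2 and -0.21 in batch 3. This call was lost without neonatal large replicate 13 (-0.16, adjusted p 0.0570), neonatal small replicate 3 (-0.17, adjusted p 0.0543) or neonatal small replicate 6 (-0.16, adjusted p 0.0618), without the batch term (-0.20, adjusted p 0.129), and under median of ratios (-0.14, adjusted p 0.0754) or quantile scaling (-0.11, adjusted p 0.0652). It was also lost in the 14 libraries whose names share a number, at -0.19 with those numbers as a replicate block (adjusted p 0.0595) and without it (adjusted p 0.0965). Neither kinase was called without batch 1, where limma called 0 of all genes tested and 1355 had an unadjusted p under 0.05. Depth in batch 1 was 15.5 M to 18.3 M fragments for small and 21.03 M to 23.2 M for large islets, and 5 of 6 mesenchymal markers were lower in small islets over all batches. The part of either in the size difference was not tested.

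The other 8 genes did not pass the test between sizes. The largest of these differences in size was that of Cdkn2b (-0.22, SE 0.13, adjusted p 0.232), at -0.29 in batch 1, -0.30 in batch 2 and 0.04 in batch 3. Cdkn1b was called in batch 1 alone (-0.26, adjusted p 0.0234), where the small libraries had 16.6 to 18.5 FPKM and the large ones 19.0 to 24.3 FPKM, but not over all batches (-0.10, adjusted p 0.251). Ccnd1 was lower in small islets in batch 1 (-0.11) and higher in batches 2 (0.17) and 3 (0.22), none of them called. Ccne1 and Ccnd2 each differed by -0.01 on the log2 scale, with SE of 0.06 and 0.09.

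**Figure D4:**
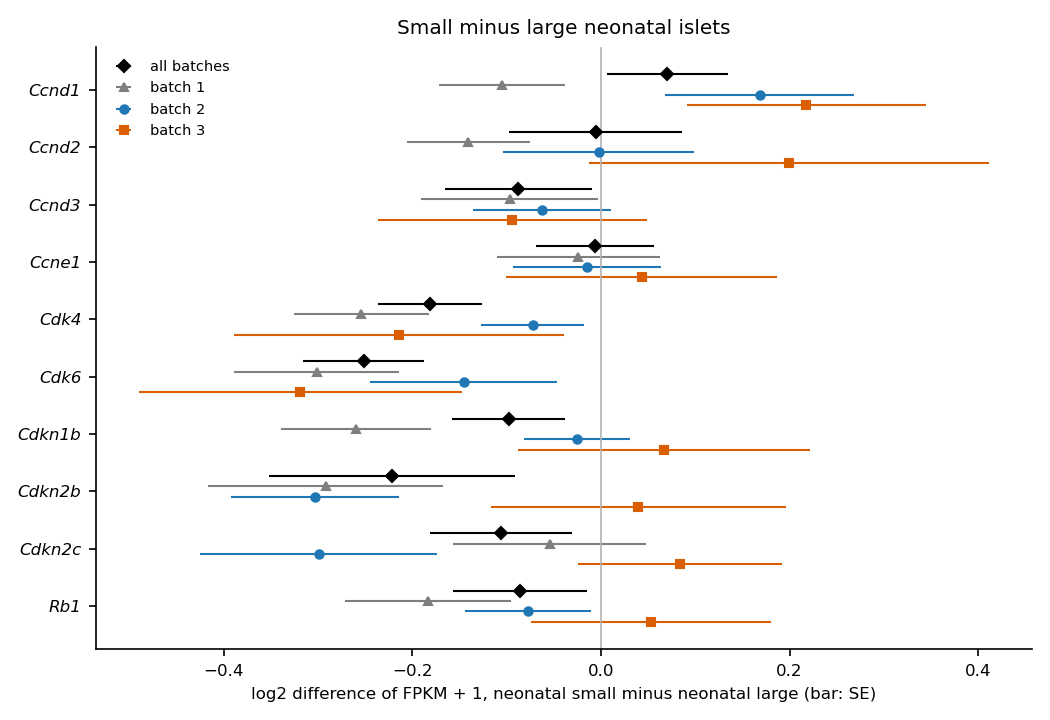
Log2 difference of FPKM + 1, neonatal small minus neonatal large (horizontal axis), with its SE for each gene over all batches (diamonds) and in batch 1 (triangles), batch 2 (circles) and batch 3 (squares). Ccnd3, Cdk4 and Cdk6 lie below 0 in every batch, Cdk4 and Cdk6 at -0.18 and -0.25 over all batches, and the differences of Ccnd1, Ccnd2, Ccne1, Cdkn1b, Cdkn2b, Cdkn2c and Rb1 change sign between batches.

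The other genes of the G1 network are given by list, beside the 46.8% of all genes tested that were called lower and the 21.1% called higher in adult islets. 8 of the 44 genes in these lists had no adult library at 1 FPKM, so they passed the filter on low values through the neonatal libraries alone, and the counts below include them. Of 12 E2F and pocket protein genes, 7 were lower in adult islets and 0 higher, and 5 did not pass the test, with a median log2 difference of -0.84 beside -0.16 for all genes. A share of 7 in 12 is near that of all genes. The largest differences among them were those of E2f8, a repressor of E2F targets, and of E2f1, an activator. E2f8 averaged 0.366 ± 0.18 FPKM in adult and 5.32 ± 1.06 FPKM in neonatal libraries (SD, n = 6 and 20; log2 difference -2.18, adjusted p 2.78e-15), and it is 1 of the 8 genes that passed the filter through neonatal libraries alone. E2f1 averaged 3.42 ± 0.67 FPKM in adult and 11.9 ± 1.38 FPKM in neonatal libraries (-1.51, adjusted p 6.77e-17). When values were rescaled by median of ratios or quantile-normalized, 3 of the 12 were called higher, as were 3 of the 12 genes of the next list and 2 of the 8 locus regulators.

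Of 12 other G1/S cyclins, kinases and activators, 7 were lower in adult islets, 1 higher and 4 did not pass the test (median log2 difference -0.58), again near the shares of all genes. Ccna2, the A cyclin of S phase and mitosis, averaged 1.16 ± 0.25 FPKM in adult and 22.2 ± 4.82 FPKM in neonatal libraries (-3.52, adjusted p 1.47e-20). Cdk2, the partner of cyclin E, averaged 1.14 ± 0.07 FPKM in adult and 6.92 ± 1.21 FPKM in neonatal libraries (-1.83, adjusted p 7.59e-17). The gene that was higher was Fbxw7, whose protein marks cyclin E for degradation, at 17.9 ± 3.32 FPKM in adult and 10.7 ± 1.53 FPKM in neonatal libraries (0.75, adjusted p 1.31e-10).

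Of 5 further inhibitor genes, 4 were tested, 3 were lower in adult islets and 0 higher, a number of genes too small to set against the 46.8% of all genes, and Cdkn2a is not analysed here. Cdkn1c, the KIP2 inhibitor, averaged 1.32 ± 0.19 FPKM in adult and 14.5 ± 8.14 FPKM in neonatal libraries (-2.45, adjusted p 6.28e-10). Cdkn3, a phosphatase gene that peaks in dividing cells, was at 0.125 ± 0.08 FPKM in adult and 1.94 ± 0.63 FPKM in neonatal libraries (-1.42, adjusted p 2.18e-12), and it passed the filter through neonatal libraries alone. Cdkn1a, which encodes p21 and is named here after its values were seen, was not called when batches were combined (0.37, adjusted p 0.394). It had 45.4 to 51.7 FPKM in the adult libraries of batch 2 and 5.14 and 5.68 FPKM in those of batch 3. Neonatal libraries of those batches had 11.8 to 28.8 FPKM. The adult values thus lay above all neonatal ones in batch 2 (1.55, adjusted p 1.46e-06) and below all of them in batch 3 (-1.78, adjusted p 0.00106), and Cdkn2b, too, was lower in the adult libraries of batch 3 than in those of batch 2.

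Of 8 genes whose products are known to act on the inhibitor loci in islets, 5 were lower in adult islets, 1 was higher and 2 did not pass the test (median -0.29), near the shares of all genes (46.8% lower and 21.1% higher). Ezh2, the methyltransferase that represses the Cdkn2a and Cdkn2b locus, averaged 2.83 ± 0.54 FPKM in adult and 10.1 ± 1.64 FPKM in neonatal libraries (-1.58, adjusted p 4.92e-15). Foxm1, a transcription factor of dividing cells, averaged 0.686 ± 0.10 FPKM in adult and 9.25 ± 1.71 FPKM in neonatal libraries (-2.49, adjusted p 3.17e-18), and it passed the filter through neonatal libraries alone. Kmt2a, the partner of menin at the Cdkn1b and Cdkn2c loci, was higher in adult islets, at 38.4 ± 5.82 FPKM in adult and 27.2 ± 7.46 FPKM in neonatal libraries (0.71, adjusted p 1.67e-07), although it was not called in batch 3 alone (0.63, adjusted p 0.0510). The 8 proliferation markers were all lower in adult islets (median -2.88), with Mki67 at 2.13 ± 0.54 FPKM in adult and 40.6 ± 6.41 FPKM in neonatal libraries (-3.65, adjusted p 6.61e-20) and Top2a at 2.29 ± 0.70 FPKM in adult and 39.8 ± 6.06 FPKM in neonatal libraries (-3.72, adjusted p 4.10e-20).

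**Figure D5:**
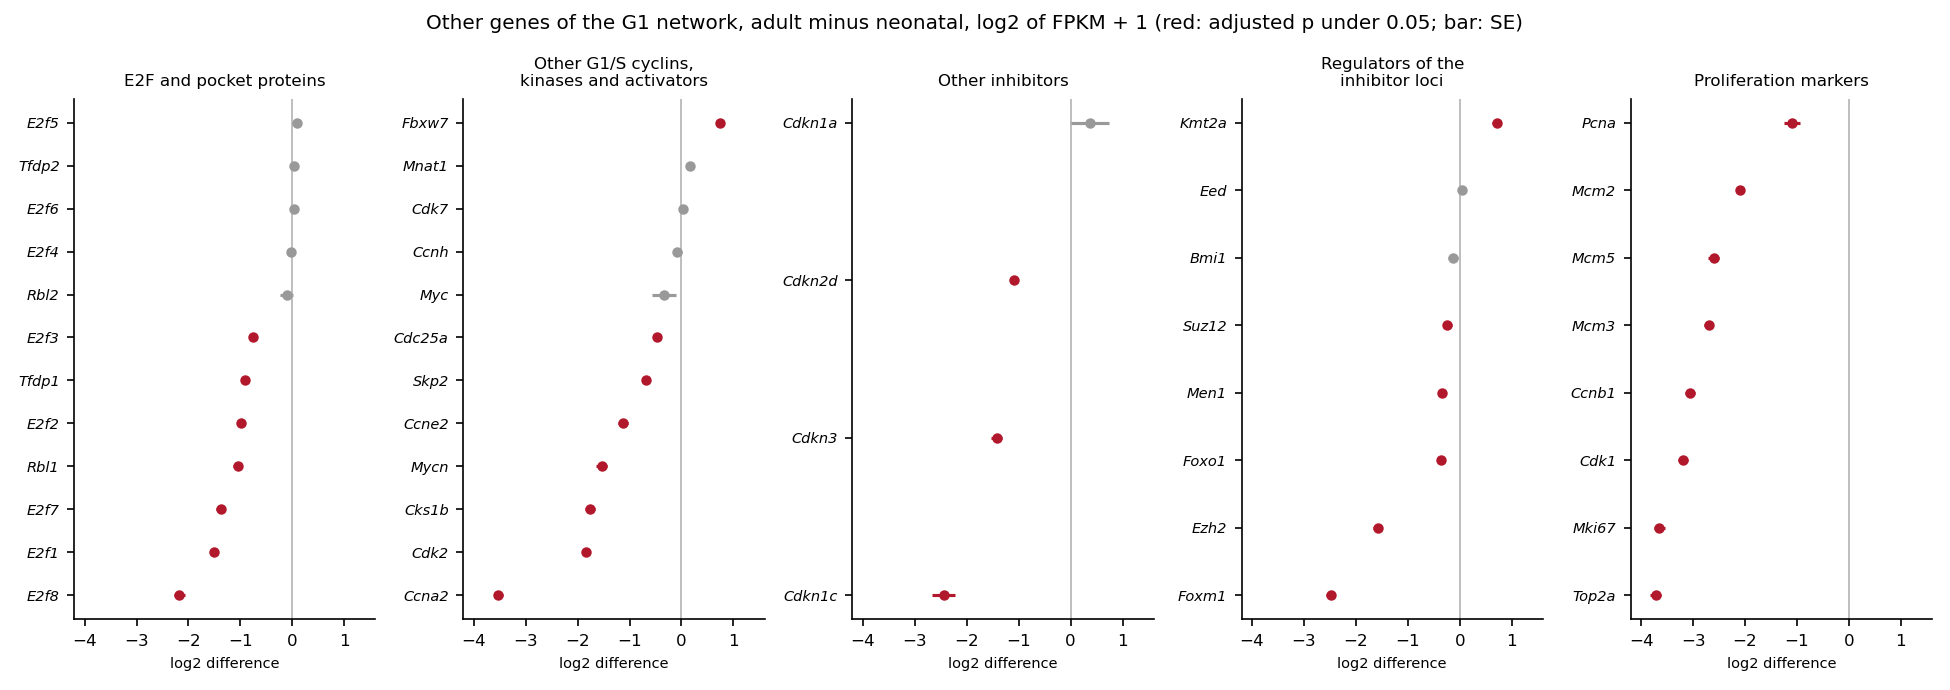
Log2 difference of FPKM + 1, adult minus neonatal (horizontal axis), with its SE for the other genes of the G1 network, in 5 lists, with genes called at an adjusted p under 0.05 in red and the rest in grey. All 8 proliferation markers and 7 of 12 E2F and pocket protein genes are lower in adult islets, while Fbxw7 and Kmt2a are higher.

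To see which genes varied most like each of the 10, Pearson's r of log2(FPKM + 1) was taken over the 20 neonatal libraries after centring on each batch and size. These values are a description, since libraries share depth and composition. Cdkn2c ran with genes of mitosis, Ube2c (r 0.88), Racgap1 (0.87) and Cdca8 (0.87). Ccne1 ran with Pclaf (0.87), Tubb5 (0.86) and Tcf19 (0.84), of which Pclaf encodes a PCNA-binding factor. Cdk4 ran with the ribosomal protein genes Rpl21 (0.94), Rpl4 (0.93) and Rpl36a (0.93), and over the 19 neonatal libraries without neonatal large replicate 14 its nearest genes were Npl (0.90), Rpl4 (0.89) and Rpl21 (0.89). Cdkn2b ran with Myo1g (0.87), Spi1 (0.83) and Itgb2 (0.82), genes of blood cells, while the summed FPKM of the 4 macrophage markers was 13.9 to 22.6 in adult, 11.0 to 31.2 in neonatal small and 13.7 to 41.9 in neonatal large libraries. The part of such cells in the level of Cdkn2b was not tested. Ccnd2 ran with Wfs1 (0.96), a gene of the endoplasmic reticulum that is abundant in β cells, and Lman2 (0.94), and Cdk6 ran with Nfib (0.91), Cdh6 (0.90) and Amot (0.90). Neighbours depended on neonatal large replicate 14. Without it, those of Cdk6 were Ska3 (0.94), Tgif1 (0.93) and Rab27b (0.93). Those of Ccne1 were then Prc1 (0.89), Rrm1 (0.87) and Top2a (0.86). Cdkn2c kept Ube2c (0.93) and Cdkn2b kept Myo1g (0.86) among their nearest 3. Ccnd3 was nearest to Tead3 (0.92), Rb1 to Wapl (0.95), Cdkn1b to Hyls1 (0.93) and Ccnd1 to Zc3h8 (0.78). Over all 26 libraries centred on batch, where the age difference itself enters, Cdkn2c was nearest to the mitosis genes Dlgap5, Tpx2 and Aurkb (0.99 each), Ccne1 to Ckap2l (0.99), Cdk6 to Smo (0.99) and Cdkn2b to Ddx58 (0.97).

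Among the 10 genes themselves, the closest pair over the 20 neonatal libraries was Ccne1 with Cdkn2c (r 0.60), followed by Ccnd3 with Cdk6 (0.58) and Cdk4 with Cdkn2b (0.54). Ccnd2 and Cdk4 ran in opposite directions (-0.61), and so did Cdk4 and Rb1 (-0.61). Neonatal large replicate 14 held the highest Cdk4 and Cdkn1b (140.2 and 29.1 FPKM) and the lowest Ccnd2 and Rb1 (139.4 and 8.34 FPKM) of all neonatal libraries.

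The authors' deposited table compares all neonatal with all adult libraries, so that its positive log2 fold changes mean higher in neonatal islets. It lists 1.96 for Cdkn2c, 1.95 for Cdk6, 1.67 for Ccne1, 0.43 for Ccnd3 and 0.30 for Cdk4, and -1.83 for Cdkn2b and -0.55 for Ccnd2, all with an FDR under 0.001 in the authors' deposited table. The authors' deposited table also gives -0.19 for Rb1 (FDR 0.0387), -0.13 for Ccnd1 (FDR 0.172) and 0.09 for Cdkn1b (FDR 0.247). Cdkn1b and Rb1 are thus the genes of the 10 on which the call in the authors' deposited table and the fit here differed, and they were also among the 3 genes whose call or sign changed after median-of-ratios rescaling.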

How the data were processed

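RNA sequencing of islets was deposited as 1 table with 13641 genes and 26 libraries. The authors gave FPKM values per gene and library, per the file headers, and the submitters' processing notes list STAR 2.6a, HTSeq 0.11.1, edgeR and the build mm10 without saying what each did. Gene lengths, strand use in counting and library scaling are not given in the sources used here. Beside the FPKM the authors deposited a log2 fold change, a mean log2 count per M, an F statistic (a score), a p-value and an FDR for neonatal against adult libraries.

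The 10 genes and all gene lists were chosen with earlier results of these data known, so counts over them describe and support nothing further. Genes had to reach 1 FPKM in 6 or more libraries (13402 kept), and log2(FPKM + 1) was fitted with limma 3.58.1 (R 4.3.3, statmod 1.5.0; eBayes with trend and robust), with terms for group and batch, after a test on simulated data. The contrasts were adult minus neonatal (the mean of both sizes), adult minus each size and small minus large, and the tests were two-sided. The interaction with batch used the 18 libraries of batches 2 and 3. Benjamini-Hochberg adjustment ran over all genes kept. SE are those of limma, and a fold change on log2(FPKM + 1) understates that of low genes. Fragment counts were recovered from the FPKM as whole multiples per gene (100.0% of genes within 0.03 fragments), and served for depth and a voom fit. No 2 libraries held identical values (highest r 0.997).

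The rule named all 10 genes, the 2 largest called differences in each direction per network list, and the 3 genes most like each of the 10. Positions are from GENCODE M21 (all 10 genes matched) and promoter sequences from RefSeq, GRCm38.p6, with 9 windows for 7 of the 10 genes. The windows of Ccnd1, Ccnd2 and Rb1 are not used here. Alternatives were another pseudocount (0.1), no filter, median-of-ratios and quantile scaling, voom, no batch term, single batches, a replicate block and each library left out. Spreadsheet dates had replaced 20 gene names, which stayed in the fits unnamed.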

Additional observations from a re-analysis of the deposited data

Results flagged for a closer look

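The adult minus neonatal difference was not the same in batches 2 and 3 for 5 of the 10 genes, by limma's interaction test over 18 libraries, a share near the 44.9% of all genes tested for which it was called. The difference of log2 differences, batch 2 minus batch 3, was 1.25 for Cdkn2b, 0.62 for Ccnd3, 0.38 for Ccne1, -0.66 for Ccnd2 and -0.53 for Rb1. The direction of the age difference itself was the same in both batches for Cdkn2b, Ccnd3, Ccne1 and Ccnd2 and opposite for Rb1. For Ccnd2 it was not called in batch 2 alone (0.07, SE 0.08). For Rb1 it was not called in batch 3 alone (0.29, SE 0.12). Batch 3 held 2 adult libraries, so its side rests on that pair, and a test of what set them apart was not run. The search for a value far from the others covered 20 combinations of a gene with a group of 4 to 10 libraries. Of these, 0 held such a value, while chance would mark about 5% of them. Neonatal large replicate 14 belongs to a group of 11 libraries, with 3 in its batch. Both numbers lie outside 4 to 10, so the 0 does not speak for that library.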

How the results depend on the processing

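Over all fits, the 6 lower calls in adult minus neonatal ranged from 5 to 8 (8 in batch 2 alone) and the 2 higher calls from 1 to 2. Of the 10 genes, the number called higher in adult minus neonatal was 1 in batch 2 alone, and 1 likewise against large and against small islets. Against small islets it was 0 in batch 3 alone and 1 without batch 1. Leaving out single libraries gave 1 to 2 for each of these 3 counts. The number called lower in small minus large was 0 in batch 2 alone, in batch 3 alone and without batch 1. It was 1 after either rescaling and without a batch term, and 1 to 2 with single libraries left out.

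Signs changed mostly for differences near 0. After median-of-ratios rescaling, adult minus neonatal was 0.089 for Ccnd1 and 0.15 for Rb1, against large islets 0.14 for Ccnd1 and 0.12 for Rb1, and against small islets 0.033 for Ccnd1, and small minus large was 0.037 for Ccnd2 and 0.029 for Ccne1. After quantile normalization, adult minus neonatal was 0.0059 for Ccnd1 and 0.11 for Rb1, against large islets 0.050 for Ccnd1 and 0.084 for Rb1, small minus large was 0.11 for Ccnd2 and 0.052 for Ccne1, and the batch difference of Cdk4 was -0.13. In batch 3 alone, adult minus neonatal was 0.026 for Ccnd1, 0.29 for Rb1 and -1.78 for Cdkn1a, and against large islets 0.13 for Ccnd1 and 0.31 for Rb1. Small minus large in batch 3 alone was 0.20 for Ccnd2, 0.043 for Ccne1, 0.067 for Cdkn1b, 0.040 for Cdkn2b, 0.084 for Cdkn2c and 0.053 for Rb1. Without batch 1 it was 0.087 for Ccnd2, 0.0057 for Ccne1 and 0.014 for Cdkn1b, and adult minus small was -0.037 for Rb1. In batch 1 alone, small minus large was -0.11 for Ccnd1. In batch 2 alone, adult minus small was -0.20 for Rb1, and in voom it was -0.013. Without the batch term, adult minus neonatal was 0.026 for Rb1. The batch difference of Cdkn2c was -0.048 with a pseudocount of 0.1 and -0.062 in voom. With single libraries left out, small minus large ran from -0.065 to 0.012 for Ccnd2 and -0.033 to 0.017 for Ccne1, adult minus small from -0.074 to 0.040 for Rb1, and the batch difference from -0.012 to 0.15 for Cdk6 and -0.027 to 0.11 for Cdkn2c. The cause was not tested.

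The library names carry numbers that join 7 small and large libraries. The correlation of their deviations ran from -0.16 to 0.63 and was over 0.1 in 6 of 7 pairs. In 6 of 7 the library of the same number was also the best match. The pair at -0.16, in batch 3, did neither, and the numbers were not taken as pairs. Most of them did run together, so the main small minus large tests ignore a pairing that may exist. With these numbers as a replicate block, 3129 genes were called small minus large, against 2138 in the same 14 libraries without it. Of the 10 genes 1, Cdk6, was called lower either way, while Cdk4 was called in neither. Small minus large for Ccnd2 was 0.027 in both. Depth limits Cdkn2b, Ccne1, Cdkn2c and Cdk6 most, with 40, 43, 129 and 131 fragments in their lowest libraries, against at least 496 for the other 6 genes.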
